A study of Mus musculus with 12 samples.

Results

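The cytosolic heat shock proteins described here are 9 genes of the mouse, chosen by symbol for this family and its regulator: Hspa1a, Hspa1b, Hspa8, Hsp90aa1, Hsp90ab1, Hsph1, Dnajb1, Hspb1 and Hsf1. Each symbol was matched to 1 Ensembl ID through the GENCODE M21 annotation, so the members are 9 of the 48709 gene IDs in every deposited count file, and all 9 passed the filter on low counts that left 16829 genes for testing. None of the 9 showed a difference between MI and Sham beyond the spread of the libraries. Their mean levels ranged from 0.748 (Hspa1a) to 485 (Hsp90ab1) on a scale per length of transcript. The standard deviation (SD) of log2 expression of Hsp90aa1, Hspa8 and Dnajb1 was 3.31 to 6.07 times as large in Sham as in MI, where the median over all genes was 1.45. For Hsp90aa1, the widest, it was 0.032 in MI and 0.196 in Sham, or 0.048 in Sham without the library Sham 6. The high and low ends of several members came from the same few Sham libraries.

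Chaperones bind unfolded or half-folded proteins and, with energy from ATP, help them fold or pass them on for degradation. HSP70 proteins (Hspa1a, Hspa1b, Hspa8) take up substrates delivered by J-domain proteins such as Dnajb1 and release them with the help of HSP110 (Hsph1), while HSP90 proteins (Hsp90aa1, Hsp90ab1) finish the maturation of kinases and steroid receptors. Heat shock factor 1 (Hsf1) binds heat shock elements in front of the inducible genes when misfolded protein accumulates. In neurons the constitutive members are abundant, and HSC70, the product of Hspa8, also strips clathrin from synaptic vesicles.

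Tissue of the hippocampal field CA1 came from mice with a myocardial infarction, made by tying off a coronary artery (MI, 6 libraries), and from mice with a comparable operation without that ligature (Sham, 6 libraries). The labels give no strain, sex, age or time after surgery, and they do not say that each library is a separate animal, so the p-values here measure the spread between these libraries. All 6 CA1 pyramidal neuron markers on the list used (Wfs1 and Fibcd1 among them) were detected, with a summed level of 1041 to 1338 CPM (counts scaled to library size) in MI and 683 to 1499 CPM in Sham. Dentate granule cell markers summed to 80.6 to 361 CPM in MI and 101 to 902 CPM in Sham, and of the choroid plexus markers Kcnj13 and Folr1 had 0 counts in at least 1 library. Library totals were between 20764133 and 35643127 counts. Y-linked transcripts outnumbered Xist in 3 MI and 3 Sham libraries and Xist outnumbered them in the other 3 of each group, a split that the labels do not make.

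Hspa1a and Hspa1b encode the stress-inducible HSP70 and lie side by side on chromosome 17. Hspa1a (ENSMUSG00000091971) is annotated at chr17:34969190-34972156 and Hspa1b (ENSMUSG00000090877) at chr17:34956436-34959238, both on the minus strand of mm10, and both are protein-coding. The RefSeq promoter table (GRCm38.p6) held entries for 5 of the 9 members, namely Hspa1a, Hspa1b, Hsph1, Dnajb1 and Hspb1. The 250 bases before RefSeq's start are printed for the 4 of these that hold the paired unit of a heat shock element, because that element is the known link between Hsf1 and its targets. Capitals mark the paired unit, GAANNTTC or TTCNNGAA, and each window reads 5′ to 3′ on the gene's strand.
Hspa1a, chr17:34972157-34972406, minus strand: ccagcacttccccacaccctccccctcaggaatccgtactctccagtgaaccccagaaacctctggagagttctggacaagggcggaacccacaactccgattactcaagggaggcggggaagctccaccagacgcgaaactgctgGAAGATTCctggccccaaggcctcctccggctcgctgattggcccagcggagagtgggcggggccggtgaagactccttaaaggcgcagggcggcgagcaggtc
Hspa1b, chr17:34959239-34959488, minus strand: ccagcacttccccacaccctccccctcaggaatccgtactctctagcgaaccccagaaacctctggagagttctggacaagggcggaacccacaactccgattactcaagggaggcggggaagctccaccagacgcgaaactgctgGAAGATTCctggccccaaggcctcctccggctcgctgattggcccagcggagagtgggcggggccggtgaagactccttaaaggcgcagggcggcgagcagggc
Hsph1, chr5:149636337-149636586, minus strand: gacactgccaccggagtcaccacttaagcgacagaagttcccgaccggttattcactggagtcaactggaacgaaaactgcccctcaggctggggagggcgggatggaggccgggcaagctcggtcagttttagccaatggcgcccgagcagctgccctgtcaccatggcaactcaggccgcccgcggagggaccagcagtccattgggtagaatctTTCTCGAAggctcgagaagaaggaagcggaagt
Hspb1, chr5:135887669-135887918, plus strand: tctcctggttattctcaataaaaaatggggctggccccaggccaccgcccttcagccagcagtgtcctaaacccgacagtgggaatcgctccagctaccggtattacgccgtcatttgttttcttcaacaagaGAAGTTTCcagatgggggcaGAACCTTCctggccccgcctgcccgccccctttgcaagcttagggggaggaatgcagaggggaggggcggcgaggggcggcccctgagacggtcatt

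The windows of Hspa1a and Hspa1b were identical at 247 of 250 bases, with C44T, T47C and T249G as the differences (the Hspa1a base first, positions counted from 1 at the window's 5′ end, the Hspa1b base last). Both held 1 GAANNTTC, at bases 104 to 97 before the start. Hspb1 held 2, at bases 117 to 110 and 97 to 90, Hsph1 held 1 TTCNNGAA at bases 33 to 26, and no letters of either kind stood in the Dnajb1 window. Of 32851 promoters of the same length, searched on both strands, 6.69% held GAANNTTC and 7.17% held TTCNNGAA, both of which read the same on either strand. The longer form of 3 units, in which they overlap, stood in 0 of the 5 members and in 0.466% of all promoters. TATAAA stood in 0 of the 5 members (12.4% of all) and CCAAT in 4 of them, all but Hspb1 (33.8% of all). The GENCODE transcript of Hsph1 begins further upstream, so its window overlaps that gene as annotated below and the unit at bases 33 to 26 lies inside it. These matches describe letters, not binding, which was not measured.

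How strongly each chaperone was transcribed was compared per length, as CPM per kilobase of merged exons. Hsp90ab1, the constitutive cytosolic HSP90, stood highest with 492.9 ± 25.8 in MI and 477.6 ± 48.7 in Sham (mean CPM per kilobase ± SD, n = 6 each). Averaged over all 12 libraries, its level was 9.73 times that of Hspa8, the constitutive HSC70, at 49.9 CPM per kilobase, and 6.27 times (466.7 against 74.5) per kilobase of the unshared windows described below. Hsph1 followed with 44.1 and Hsp90aa1, the more stress-responsive HSP90, with 37.2 CPM per kilobase. Dnajb1 had 14.5, Hsf1 6.25, Hspa1b 1.42, Hspb1 0.763 and Hspa1a 0.748 CPM per kilobase. The constitutive forms thus stood far above the inducible HSP70 pair, in MI and in Sham alike.

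Neighbours in this order were compared within libraries by an exact two-sided sign-flip test. No difference was detected between Hspb1 and Hspa1a (exact p = 0.731, Hspb1 higher in 5 of 12 libraries), and each other neighbouring pair differed, with Hspa8 above Hsph1 in 11 of 12 libraries (exact p = 0.000977, 0.0012 when adjusted over the neighbours on both length scales). The order rests on the length used, since 50-base reads from near-identical sequences can be dropped or moved to another gene. Of all 50-base windows in the transcripts, 66.3% of those of Hspa1a, 62.3% of Hspa1b, 50.1% of Hspb1, 47.5% of Hsp90aa1 and 39.4% of Hspa8 also occur in a transcript of another gene. For Hsp90ab1 this share is 3.44%, for Dnajb1 0.412%, and for Hsph1 and Hsf1 it is 0. As an alternative, the whole CPM of each gene was divided by the kilobases of its unshared windows. That scale holds only if every read from a shared window was dropped, which is not known. On it Hsp90aa1 had 69.9 and stood above Hsph1 with 42.7. Hspa1a had 2.26 and stood above Hspb1 with 1.53 (exact sign-flip p = 0.00293, adjusted p = 0.00313).

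**Figure D1:**
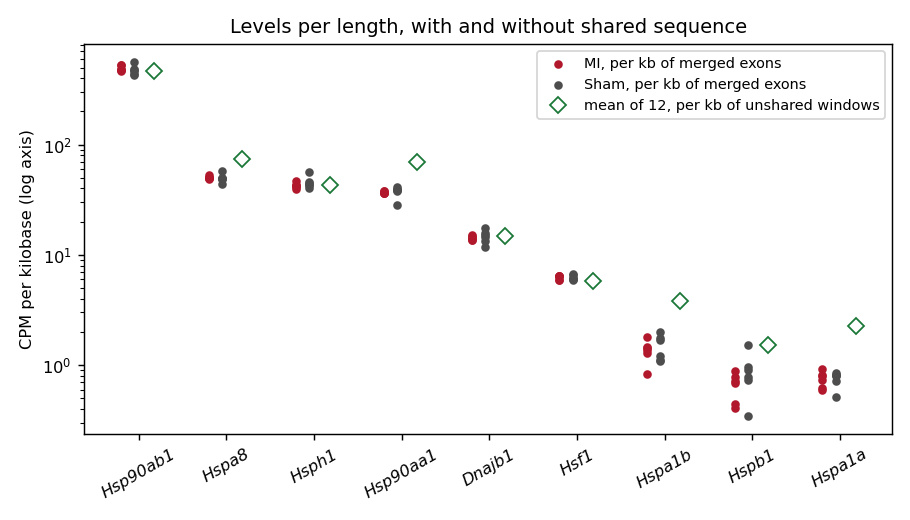
Level of each member in CPM per kilobase (log axis), with MI libraries (red points) left of Sham libraries (grey points). Open diamonds give the mean of 12 libraries with the whole CPM divided by the kilobases of windows that no other gene's transcript shares. Hsp90ab1 stands above every other member, 9.73 times Hspa8 by merged exons and 6.27 times by unshared windows, and the diamonds lie furthest above the points for Hspa1a, Hspa1b, Hspb1, Hsp90aa1 and Hspa8, the genes with 39.4% or more of their windows shared.

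For Hspb1, Hsp90aa1 and Hspa8, the pseudogene with the largest shared part held few counts itself, while the HSP70 pair shares sequence with expressed genes. Hspa1b, which holds 58.8% of the Hspa1a windows, had 50 to 189 counts per library, Hspa1l, which holds 7.95%, had 44 to 85, and the antisense gene Gm10501, also at 7.95%, had 13 to 44. Hsp25-ps1, a processed pseudogene that holds 48.8% of the Hspb1 windows, had 0 or 1 count per library, Gm12346, which holds 41.8% of those of Hsp90aa1, had 3 to 20, and Gm15459, which holds 34.6% of those of Hspa8, had 0 in every library. The sources used here do not state how reads with several matches were treated or whether strand was used. Exons of Hspa1a overlap 564 bases of Gm20481 on the opposite strand, which had 0 counts throughout, and Hspa8 hosts the small nucleolar RNA genes Snord14c, Snord14d and Snord14e. Levels of Hspa1a, Hspa1b, Hspb1, Hsp90aa1 and Hspa8 are therefore uncertain in absolute terms.

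Whether MI changes chaperone transcripts in CA1 was asked by comparing the groups in edgeR's quasi-likelihood F test, fitted over all genes. At an adjusted p under 0.05 (Benjamini-Hochberg over the 16829 genes) 0 of the 9 members were called, where 0% of all genes were. At an unadjusted p under 0.05 it was also 0 of 9, against 7.55% of all genes (3.95% higher and 3.59% lower in MI). DESeq2 and limma-voom called 0 of the 9 as well. The difference was positive for 3 members (Hspa8, Hsp90ab1, Hsf1) and negative for 6, where 47.6% of all genes were positive and 52.4% negative. The median log2 fold change of the members was -0.018, beside -0.0071 for all genes tested. In 0 of the 9 did the MI and Sham libraries separate without overlap, as 0.41% of all genes did (0.25% with MI higher and 0.16% with MI lower). With bulk tissue, fewer cells of a type and less RNA per cell cannot be told apart.

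**Figure D2:**
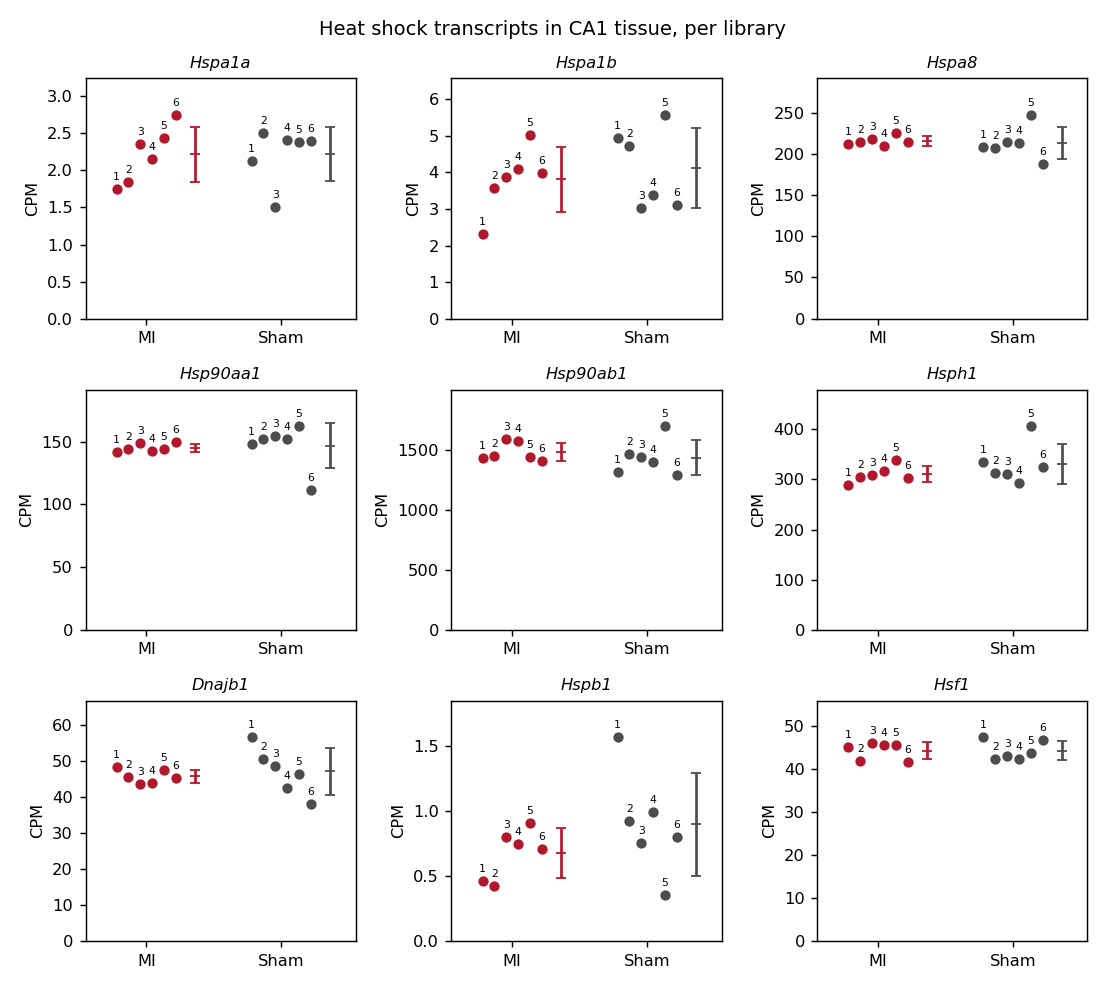
CPM of each member in the MI libraries (red, left) and the Sham libraries (grey, right), numbered by replicate, with the mean and SD of 6 libraries beside them. In every panel the groups overlap, and Sham 5 or Sham 6 sits at the edge of the Sham values for Hspa8, Hsp90aa1, Hsp90ab1 and Hsph1.

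The inducible HSP70 pair gave few counts. Hspa1a had 1.75 CPM at the lowest, 2.26 at the median and 2.75 at the highest in MI, against 1.51, 2.39 and 2.51 CPM in Sham. Hspa1b had 2.31, 3.93 and 5.01 CPM in MI, against 3.02, 4.06 and 5.57 CPM in Sham. The groups overlapped for both genes. For Hspa1a this rests on 32 to 93 counts per library and for Hspa1b on 50 to 189. The log2 fold change of Hspa1a was -0.0036 (SE 0.15, edgeR adjusted p = 0.996) and that of Hspa1b was -0.12 (SE 0.19, adjusted p = 0.925). Because reads of these copies can be split, they were also summed, which gave 6.03 ± 1.17 CPM in MI and 6.35 ± 1.28 CPM in Sham (SD over 6 libraries each), with a log2 fold change of -0.076 (SE 0.16, edgeR adjusted p = 0.941). The ratio of Hspa1b to Hspa1a counts was 1.32 to 2.06 in MI and 1.29 to 2.33 in Sham.

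Hspa8, whose product HSC70 is the constitutive HSP70 of neurons (ENSMUSG00000015656, chr9:40800984-40810087, plus strand), had 210.0, 214 and 226 CPM at the lowest, median and highest MI library, against 188, 211 and 247 CPM in Sham. The MI values lay inside the Sham range, with Sham 6 at its lower and Sham 5 at its upper end. Its log2 fold change was 0.016 (SE 0.057, edgeR adjusted p = 0.971), with a 95% interval of 0.929 to 1.10 in fold.

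The HSP90 pair showed the same nesting. Hsp90aa1 (ENSMUSG00000021270, chr12:110690605-110702728, minus strand) had 142, 144 and 149.5 CPM in MI at the lowest, median and highest, against 111, 152 and 162 CPM in Sham. Of the MI libraries, 0 of 6 lay above the Sham median, yet the single low library Sham 6 brought the group means to 145.2 ± 3.27 CPM in MI and 147.0 ± 18.1 CPM in Sham (SD, n = 6 each). The log2 fold change was -0.018 (SE 0.074, edgeR adjusted p = 0.974), and it was -0.069 (adjusted p = 0.353) without Sham 5 and Sham 6. Hsp90ab1 (ENSMUSG00000023944, chr17:45567775-45573271, minus strand) had 1406, 1441 and 1584 CPM in MI, against 1286, 1418 and 1694 CPM in Sham. With 5 of 6 MI libraries above the Sham median its log2 fold change was 0.046 (SE 0.069, edgeR adjusted p = 0.916), an interval of 0.932 to 1.14 in fold.

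Among the partners of HSP70, Hsph1 encodes the nucleotide exchange factor HSP110 (ENSMUSG00000029657, chr5:149614287-149636376, minus strand). It had 289.6, 308 and 338 CPM in MI, against 293, 318 and 406 CPM in Sham, with Sham 5 the highest library. The log2 fold change was -0.090 (SE 0.073, edgeR adjusted p = 0.814), and it was -0.014 without Sham 5 and Sham 6. Dnajb1 encodes the J-domain protein HSP40 (ENSMUSG00000005483, chr8:83608193-83612653, plus strand). It had 43.5, 45.4 and 48.3 CPM in MI, against 38.0, 47.5 and 56.5 CPM in Sham, with Sham 1 the highest and Sham 6 the lowest of the 12. Its log2 fold change was -0.044 (SE 0.079, edgeR adjusted p = 0.934).

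Dnajb1 was the member with the smallest p for a difference in MI minus Sham between the libraries with Y-linked counts and those with Xist. MI minus Sham was -0.20 (SE 0.078) on the log2 scale among libraries with Y-linked counts, and 0.13 (SE 0.081) among those with Xist. The interaction was -0.32 (unadjusted p = 0.0147, adjusted p = 0.516 in edgeR), so it did not pass the threshold, where 2 genes or 0.0119% did and 8.24% had an unadjusted p under 0.05. For the other 8 members the unadjusted p of the interaction was 0.291 or more.

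Hspb1 encodes HSP27, a small heat shock protein that holds unfolded proteins without using ATP (ENSMUSG00000004951, chr5:135887919-135889563, plus strand). It was close to the floor of detection, with 10 to 34 counts per library. In MI it had 0.424, 0.727 and 0.912 CPM at the lowest, median and highest, against 0.354, 0.860 and 1.57 CPM in Sham. Sham held both the highest library (Sham 1, 34 counts) and the lowest (Sham 5, 12 counts in a larger library). The log2 fold change was -0.38 (SE 0.30, edgeR adjusted p = 0.812), and the 95% interval of 0.489 to 1.21 in fold was the widest of the 9. Without Sham 5 and Sham 6 it was -0.63 (adjusted p = 0.200).

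Hsf1, the transcription factor of the response (ENSMUSG00000022556, chr15:76477422-76501913, plus strand), had the smallest within-group SD of log2 CPM of the 9 when pooled over MI and Sham, at 0.068, though not within MI alone, where its SD of 0.064 exceeded those of Hsp90aa1, Hspa8 and Dnajb1. It had 41.8, 45.4 and 46.0 CPM in MI, against 42.3, 43.5 and 47.5 CPM in Sham. With a log2 fold change of 0.00093 (SE 0.045, edgeR adjusted p = 0.997), its 95% interval was 0.936 to 1.07 in fold. Hsf1 acts largely through modification and movement of its protein, which transcript counts do not show.

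**Figure D3:**
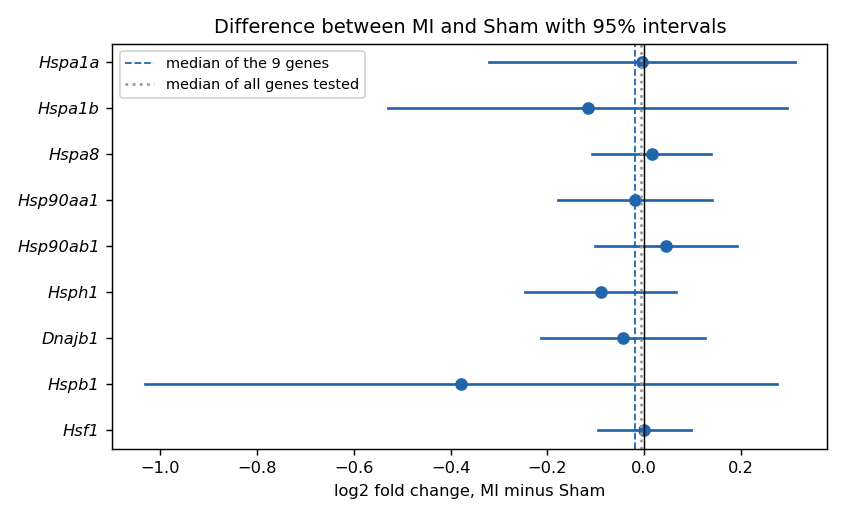
Log2 fold change (MI minus Sham) of each member with its 95% interval from the edgeR fit of 6 MI and 6 Sham libraries. Every interval spans 0, the widest is that of Hspb1 and the narrowest that of Hsf1, and the dashed line at -0.018 marks the members' median beside the dotted line of all genes tested.

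The spread within each group was described next. Over all genes 76.25% had a larger SD of log2 CPM in Sham than in MI, with a median ratio of 1.45, and so did all 9 members. For Hsp90aa1 the SD was 0.032 in MI and 0.196 in Sham, a ratio of 6.07 that 0.404% of genes reached. For Hspa8 it was 0.037 in MI and 0.127 in Sham (ratio 3.40, reached by 4.36% of genes), and for Dnajb1 0.061 in MI and 0.200 in Sham (ratio 3.31, reached by 4.88%). Hsph1 and Hsp90ab1 had ratios of 2.18 and 1.91, and the other 4 members lay between 1.03 and 1.58. Leaving out Sham 6 alone brought the Sham SD of Hsp90aa1 to 0.048, and leaving out Sham 5 and Sham 6 brought it to 0.025 and that of Hspa8 to 0.023. Dnajb1 kept 0.172 without them. The wide Sham spread of Hsp90aa1 and Hspa8 thus lies in those 2 libraries, which are the ends of both genes' Sham ranges. Leaving out both ends tends to lower an SD, and MI was not trimmed in this way. For Dnajb1 only Sham 6 was such an end.

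Of the 12 libraries, Sham 5 was the highest for 5 members (Hspa1b, Hspa8, Hsp90aa1, Hsp90ab1, Hsph1) and Sham 6 the lowest for 4 (Hspa8, Hsp90aa1, Hsp90ab1, Dnajb1). Sham 1 was the highest for 3, Dnajb1, Hspb1 and Hsf1. Marker scores, the mean centred log2 CPM of a marker list, also stood at an extreme in these libraries. Sham 6 had the highest dentate granule cell (2.62), blood (0.594), astrocyte (0.276) and microglia (0.239) scores and the lowest interneuron score (-0.40). Sham 5 had the highest CA1 pyramidal neuron score (0.58), and Sham 1 the highest meningeal fibroblast score (1.73) with the lowest CA1 score (-0.87). Summed meningeal markers ran from 39.8 to 116 CPM in MI and from 48.5 to 274 CPM in Sham, with 0 of 7 at 0 counts. The largest library total was that of Sham 5 (35643127 counts) and the smallest that of Sham 1 (20764133). Sham 6 had 21822766, with Sham 3 and MI 1 between it and Sham 1. The part of the marker scores and of the library totals in the members' values was not tested.

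**Figure D4:**
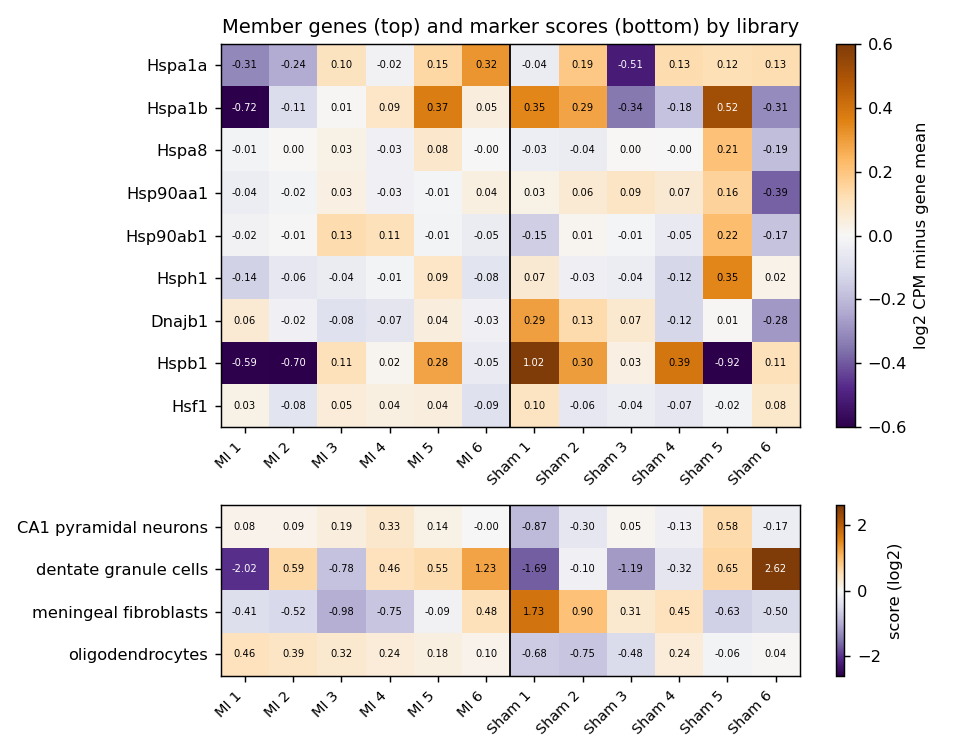
Log2 CPM of each member minus its mean over 12 libraries (top, colours end at 0.6 either way) and the scores of 4 marker lists (bottom), with MI libraries left of the line and Sham libraries right of it. Sham 5 is high for 5 members, Sham 6 is low for 4, and the dentate granule cell score reaches 2.62 in Sham 6.

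Co-variation was examined as the Pearson correlation of log2 CPM over the 12 libraries, for each of the 36 pairs of members. The coefficient was positive in 25 pairs, with a median of 0.23, and 0 pairs passed an adjusted p of 0.05 in the permutation test (3 had an unadjusted p under 0.05). Hspa8 and Hsp90aa1 had r = 0.77 (rho = 0.48, permutation p = 0.0143 and 0.119, adjusted p = 0.172 and 0.879). Without Sham 5 and Sham 6, the 2 libraries farthest from the Hspa8 median, r was -0.16. Hspa8 and Hsp90ab1 had r = 0.76 (rho = 0.53, permutation p = 0.0061 and 0.0801, adjusted p = 0.170 and 0.879) and r = 0.18 without the same pair of libraries. The high coefficients of Hspa8 with both HSP90 genes rest on these Sham libraries.

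Hspa1b and Hsph1, which are both classic heat shock targets, kept more of their correlation when libraries were left out. They had r = 0.71 (rho = 0.73, permutation p = 0.00943 and 0.00975, adjusted p = 0.170 and 0.351), and r = 0.54 without MI 1 and Sham 5, the libraries farthest from the Hspa1b median. Within MI r was 0.88 (exact p = 0.0444) and within Sham 0.69 (exact p = 0.0736, both unadjusted, n = 6 each). Of the 36 pairs, 2 within MI and 1 within Sham had an unadjusted exact p under 0.05, and 0 passed in either group after adjustment. Among 16828 other genes Hsph1 was the 58th closest to Hspa1b. Their promoter windows, printed above, each hold 1 paired unit, GAANNTTC in Hspa1b and TTCNNGAA in Hsph1. Hspa1a holds the same unit as Hspa1b but had r = 0.24 with Hsph1, and Hspb1, which holds 2 units, had r = -0.21 with Hsph1. The part of these units in the coefficients was not tested. Hspa1a and Hspa1b, which have near-identical windows and share transcript sequence, had r = 0.56 (rho = 0.45, permutation p = 0.0573 and 0.141, adjusted p = 0.334 and 0.879), and r = 0.12 without MI 1 and Sham 3. Hspa1a had 32 to 93 counts per library and Hspb1 10 to 34. The part of counting noise in their coefficients was not tested.

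Negative coefficients were fewer. The lowest were those of Hsp90ab1 with Hspb1 (r = -0.55) and of Hsp90aa1 with Hsf1 (r = -0.48), neither past the threshold. Hsf1 had no coefficient above 0.36 with any other member.

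**Figure D5:**
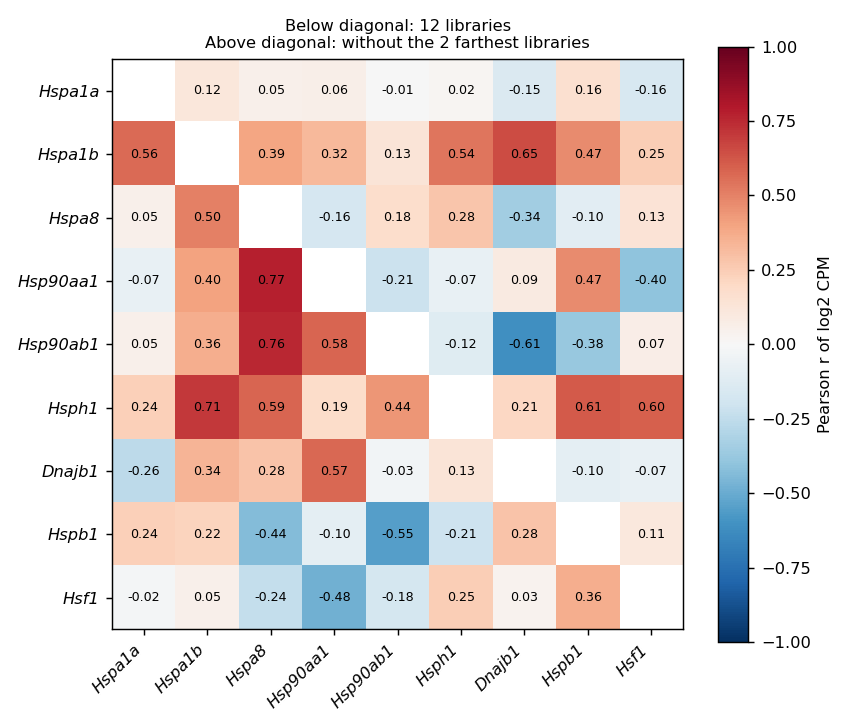
Pearson r of log2 CPM for each pair of members over 12 libraries (below the diagonal) and without the 2 libraries farthest from the median of the first gene (above the diagonal). The high values among Hspa8, Hsp90aa1 and Hsp90ab1 below the diagonal fall to between -0.21 and 0.18 above it, and that of Hspa1b with Hsph1 is 0.71 below and 0.54 above.

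Outside the list, up to 3 genes most like each member were found by Pearson r over the 12 libraries among 12579 genes with a mean of at least 50 counts, as a description. Hspa8 lay closest to Hspa4 (r = 0.92), itself an HSP110-family chaperone, and then to Cep83 (0.90) and Npepps (0.87). Hsp90aa1 lay closest to Tmem178b, Lrrc4c (both 0.96) and Pde1a (0.94), and Hsp90ab1 to Sept6 (0.96), Kars (0.95) and Gnb5 (0.94). Sham 6 was the lowest library and Sham 5 the highest for Hspa8, Hsp90aa1 and Hsp90ab1. The coefficients with outside genes were not computed again without those libraries, so how far they rest on them is not known. For every member, the neighbours named here came closer than any other member did, which picking from 12579 genes favours. Dnajb1 lay closest to Rab1a (0.93), Ccdc25 and Cdh7 (both 0.92), Hsph1 to Zfr (0.89), Nmt2 and Cmtm6 (both 0.87), and Hsf1 to Calr (0.86), Hdac10 (0.85) and Wfdc1 (0.83). Hspa1b lay closest to Zfp131 (0.89), Abhd6 (0.86) and Cwc22 (0.84), Hspa1a to Naif1 (0.80), Fcgr3 (0.79) and Mlh3 (0.78), and Hspb1 to Itga2b and Sema3b (both 0.88). Calr, a chaperone of the endoplasmic reticulum, and Hspa4 were the only chaperones among the neighbours named here.

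Members were also set against the scores of 13 marker lists, 117 relations in all, of which 0 passed an adjusted p of 0.05 (14 had an unadjusted p under 0.05). Hsp90ab1 with the CA1 pyramidal neuron score had r = 0.78 (rho = 0.75, permutation p = 0.00252 and 0.00659, adjusted p = 0.139 and 0.292), and r = 0.64 without Sham 1 and Sham 5. Hspb1 with the same score had r = -0.78 (rho = -0.62, permutation p = 0.00364 and 0.0344, adjusted p = 0.139 and 0.530). It was -0.34 without those libraries, the ends of that score, and -0.82 to -0.62 with each library left out in turn. Hsp90aa1 with the blood score had r = -0.70 (rho = -0.55, permutation p = 0.00389 and 0.0701, adjusted p = 0.139 and 0.530), and r = -0.50 without MI 5 and Sham 6. Hspb1 with the choroid plexus score had r = -0.75 (rho = -0.73, permutation p = 0.00474 and 0.00943, adjusted p = 0.139 and 0.292), and r = -0.72 without Sham 1 and Sham 3. Of the 5 genes on the choroid plexus list only 2 passed the filter.

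The wider chaperone network was followed through 8 lists with 96 genes, of which 91 passed the filter. In edgeR 0 of the 91 had an adjusted p under 0.05, 2 (2.2%) had an unadjusted p under 0.05 against 7.55% of all genes, and 50 were higher and 41 lower in MI. DESeq2 and limma-voom called 0 of them too. Both genes with an unadjusted p under 0.05 were higher in MI. Cryab, which encodes the small heat shock protein alpha B-crystallin, had 62.3 ± 8.08 CPM in MI and 51.2 ± 7.90 CPM in Sham (SD over 6 libraries each), with a log2 fold change of 0.28 (SE 0.11, edgeR adjusted p = 0.614). Oligodendrocytes express Cryab, and their markers were positive in 8 of 8 genes with a median log2 fold change of 0.51. Those 8 markers summed to 5043 to 6435 CPM in MI and 2749 to 5610 CPM in Sham, 0 of them at 0 counts, and their part in the Cryab value was not tested. Pfdn2, a prefoldin subunit that hands actin and tubulin to the chaperonin TRiC, had 57.6 ± 1.88 CPM in MI and 54.3 ± 1.62 CPM in Sham (SD over 6 libraries each), with a log2 fold change of 0.087 (SE 0.036, edgeR adjusted p = 0.628).

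By list, the co-chaperones of HSP90 had 11 genes higher and 5 lower in MI, with a median log2 fold change of 0.059. Those with the smallest p were the kinase adaptor Cdc37 (0.10, SE 0.049), Nudc (0.098), the ATPase activator Ahsa1 (0.091) and Tomm34 (0.12). The nucleotide exchange factors and other co-chaperones of HSP70 had 8 higher and 4 lower (median 0.033), with Hspbp1 at 0.12, Bag5 at 0.13, Sgta at 0.072 and Sgtb at -0.13. Chaperonin and prefoldin genes had 9 higher and 5 lower (median 0.016), with Pfdn5 at 0.080, Cct3 at 0.047 and Cct6a at -0.057. None of these genes had an edgeR adjusted p under 0.05.

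J-domain proteins had 5 genes higher and 9 lower in MI (median -0.022), among them Dnajb4 (-0.075) and Dnajc6, the auxilin that recruits HSC70 to clathrin coats (-0.057). Chaperones of the mitochondrion and the endoplasmic reticulum had 6 higher and 9 lower (median -0.025), with Hsp90b1, the HSP90 of the endoplasmic reticulum, at -0.091, Canx at -0.053 and Grpel1 at 0.090. The cytosolic relatives of HSP70 and HSP110 had 4 higher and 3 lower (median 0.031), with Hspa1l at -0.16, Hspa12b at 0.12 and Hspa2 at -0.095. Heat shock factors, regulators and polyubiquitin genes had 5 higher and 3 lower (median 0.040), with Ubb at 0.074 and Hsf2 at -0.059. Small heat shock proteins had 2 higher and 3 lower (median -0.034), with Hspb3 at -0.59, Hspb8 at -0.094 and Hspb6 at 0.16, while Hspb2, Hspb7 and Hspb9 did not pass the filter.

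None of the members, 0 of 9, is in the authors' deposited tables, which hold 542 genes with a higher and 517 with a lower value in MI. Together they hold 1059 genes, a number equal to 6.31% of the distinct symbols among the genes tested here. Of the 96 genes on the chaperone lists 4 are in the authors' deposited tables: Cdc37l1 as higher, with a deposited log2 fold change of 0.11, and Dnajb14 (-0.093), Cct6a (-0.079) and Bag4 (-0.10) as lower. The edgeR fit gave these genes differences of the same sign, 0.11, -0.056, -0.057 and -0.094, with adjusted p between 0.749 and 0.894.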

How the data were processed

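Polyadenylated RNA of dissected CA1 tissue was sequenced as single-end reads of 50 bases according to the labels' protocols. The submitters' processing notes name the mm10 build, STAR 2.5.2b, featureCounts, Subread 1.5.1 and FastQC 0.11.5. The authors deposited raw read counts for each Ensembl gene. The authors also deposited a table of higher and a table of lower genes, with log2 values and log2 fold changes and an adjusted p-value, and the sources used here do not say how these were made.

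Symbols came from GENCODE M21. Genes were filtered by filterByExpr, scaled by TMM and compared in edgeR 4.0.16 (R 4.3.3) by the robust quasi-likelihood F test, two-sided, without covariates, with Benjamini-Hochberg adjustment at 0.05; intervals use the fit's degrees of freedom. CPM are counts scaled to the TMM-adjusted library size, with a prior count of 2 before taking log2. Summed levels of marker lists are instead in CPM scaled to the library total without TMM. Correlations were tested by 100000 permutations of the libraries. Alternatives were DESeq2 1.42.0, limma-voom 3.58.1, sva 3.50.0, other scalings and filters, the replicate block, sex-linked sets and libraries left out. The fit was tested on simulated data, with changes placed in genes with a mean of at least 50 counts. It called 6% of 50 genes changed 1.2-fold, 76% of 50 at 1.5-fold and 98% of 50 at 2-fold, with 4 false calls. A change of 1.2-fold was thus mostly missed. Simulated counts were drawn independently with the same spread in both groups, so they lack the wider Sham spread and its outlying libraries. Recovery in the real libraries can therefore be lower. There the 8 oligodendrocyte markers had a median log2 fold change of 0.51, and 0 had an edgeR adjusted p under 0.05. Within groups, no pair of libraries agreed within sampling noise (chi-square per degree of freedom 6.22 to 78.2 over 30 pairs). Intervals cover these libraries only.

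The members, the gene lists, the rule for named genes (all members, up to 4 genes per chaperone list with the smallest p and those above Hsph1 in CPM, up to 3 neighbours per member) and the tests were chosen with earlier results of these data known. The alternatives that divide by unshared windows or leave out Sham 5 and Sham 6 were added after the values were seen. A few genes that this rule covers are not reported here.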

Additional observations from a re-analysis of the deposited data

Results flagged for a closer look

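Of the 18 groups of member values (9 genes in MI and in Sham), 2, both in Sham, had a library far from the rest by Dixon's ratio, the gap to the nearest library divided by the range of the group. Chance flags about 1 in 20 such groups.

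Hsp90aa1 had its lowest value in Sham 6, at 111 CPM, with a ratio of 0.764. The same library was the lowest of 12 for Hspa8, Hsp90ab1 and Dnajb1, had the highest dentate granule cell (2.62), blood (0.594), astrocyte (0.276) and microglia (0.239) scores and the lowest interneuron score (-0.40), and the part of these scores in the Hsp90aa1 value was not tested.

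Hspa1a had its lowest value in Sham 3, at 1.51 CPM from 32 counts, with a ratio of 0.668.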

How the results depend on the processing

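In each of the 25 alternatives and in the fit with the HSP70 pair summed, 0 of the members tested were called (8 of them under the stricter filter, which removed Hspb1), and their median log2 fold change stayed between -0.088 and 0.022. The count over all genes was 0 in the edgeR comparison of all 12 libraries but 11 in DESeq2, 211 among libraries with Y-linked counts and 288 without Sham 5 and Sham 6. The interaction with the sex-linked sets, 2 genes in edgeR, was 79 in the DESeq2 likelihood ratio test and 0 with at least 50 counts in 6 libraries. The cause of these changes was not tested.

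Some members changed sign, none with a call. Hspa1a was 0.0044 without a filter, 0.11 in limma-voom, 0.017 in the libraries with Y-linked counts, 0.0039 without Sham 1 and Sham 6 and 0.047 without Sham 5 and Sham 6. Hspa1b was 0.036 in limma-voom and 0.049 in the libraries with Xist, where Hsp90aa1 was 0.039, Hsp90ab1 -0.027, Dnajb1 0.13 and Hsf1 -0.037. Hsf1 was -0.00087 under the stricter filter and Dnajb1 0.0030 with 1 surrogate variable. Without Sham 1 and Sham 6, Hspa8 was -0.034 and Hsp90ab1 -0.020. With each library left out in turn, Hspa1a ran from -0.089 to 0.051, Hsf1 from -0.012 to 0.020, Hspa8 from -0.019 to 0.061, Hsp90aa1 from -0.088 to 0.011 and Dnajb1 from -0.099 to 0.013.

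The correlation of deviations from the group means ran from -0.53 to 0.60 over the 6 replicate numbers. These mixed signs do not decide whether the numbers pair the libraries. With the replicate block 0 members and 0 of all genes were called, their median was -0.0084, and 0 of 36 pairs of members passed. Depth limits Hspb1, Hspa1a and Hspa1b most, at 10 to 189 counts per library.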
